A study of Rattus norvegicus with 8 samples.

Results

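The Kruppel-like factors Klf4, Klf6, Klf9 and Klf10 were followed in cultured smooth muscle cells of rat pulmonary arteries after exposure to S-nitrosoglutathione (GSNO), a compound that releases nitric oxide. They are 4 of the 4736 genes that have a probe set with a single annotated symbol, and are covered by 8 of the 8799 probe sets of the array: every probe set annotated to one of these symbols alone, which gives 2 for Klf4, 1 for Klf6, 2 for Klf9 and 3 for Klf10. The genes were selected on their signal against untreated cells in these same arrays, where members of the family went in opposite directions, so the changes against control are given as a description, with no test.

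The series holds 8 Affymetrix rat arrays in 4 groups of 2: untreated control cells, and cells exposed to GSNO for 1, 2 and 4 h. All groups are primary cultures, grown from explants of vessels of adult Sprague-Dawley rats after the endothelium and adventitia were taken off. The GSNO concentration is 100 μmol/L in the series design and 100 mmol/L in the treatment protocol, and which is right was not settled here. The control has no stated time, so time in culture and GSNO cannot be told apart, and the labels do not say that the array number marks 1 of the 2 cell preparations.

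Kruppel-like factors bind GC-rich and CACCC-type DNA through zinc fingers at the carboxyl end, and their other regions decide whether they activate or repress a gene. In vascular smooth muscle, Klf4 is known for repressing contractile genes and for accompanying the switch to a less differentiated state. Klf6 and Klf10 are early response genes tied to TGF-beta signalling and to growth restraint, and Klf9 is known as a target of glucocorticoid and thyroid hormones.

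The genomic sequence directly upstream of the RefSeq transcript start is shown for Klf6, whose signal was lower with GSNO, and for Klf9, which barely moved, so that the elements in these windows can be seen side by side. Both windows are 250 bases from the RefSeq promoter table (GRCr8), printed 5′ to 3′ on the gene's strand: Klf6 at chr17:69458479-69458728, minus strand, and Klf9 at chr1:230126396-230126645, plus strand. Capitals mark matches on either strand to the cyclic AMP response element TGACGTCA, its first bases TGACG, the GC box GGGCGG, the CACCC box and the E box CACGTG.
Klf6: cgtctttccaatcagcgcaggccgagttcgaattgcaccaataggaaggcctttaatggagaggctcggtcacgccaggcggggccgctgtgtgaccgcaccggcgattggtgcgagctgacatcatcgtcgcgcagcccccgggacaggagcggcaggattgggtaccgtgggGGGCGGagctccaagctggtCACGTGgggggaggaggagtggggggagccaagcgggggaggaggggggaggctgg
Klf9: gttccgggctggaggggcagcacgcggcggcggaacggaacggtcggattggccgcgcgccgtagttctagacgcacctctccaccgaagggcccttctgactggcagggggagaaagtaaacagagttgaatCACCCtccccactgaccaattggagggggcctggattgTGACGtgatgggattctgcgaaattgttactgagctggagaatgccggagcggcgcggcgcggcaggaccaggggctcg

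The Klf6 window held 1 GC box and 1 E box, and the Klf9 window held 1 TGACG and 1 CACCC box. Neither held the whole TGACGTCA. Over all 33469 windows of the same length, 1.59% held TGACGTCA, 18.2% TGACG, 30.5% the GC box, 49.2% the CACCC box and 5.59% the E box. TGACG is also part of TGACGTCA. The window listed for Klf4 lies wholly inside the annotated span of that gene and is not printed, and Klf10 has no window here. These matches are letters in a window: no binding was measured.

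Klf4 was the family member with the largest difference from control. Its probe set L26292_at read 244 and 110.5 signal units on control arrays 1 and 2, 7063 and 5893 at 1 h, 8234 and 7206 at 2 h, and 6107 and 5494 at 4 h. Every GSNO array lay far above both control arrays. In such a bulk extract, more or fewer cells of a type and more or less RNA per cell cannot be told apart, for Klf4 or for the other members. Against the control array of the same number, the 1 h signal was 28.9 times as high on arrays numbered 1 and 53.3 times as high on arrays numbered 2.

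The other Klf4 probe set, L26292_g_at, is designed on the same sequence record. It read 165 and 51.5 in control, 6093 and 4691 at 1 h, 7192 and 5372 at 2 h, and 4968 and 4396 at 4 h. The 2 Klf4 probe sets therefore ran together, and in all 4 courses (2 probe sets, 2 array numbers) signal was lowest in control and highest at 2 h.

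Fold changes are differences of log2(signal + 21.1), where 21.1 is an offset that damps weak signals. On this scale L26292_at was higher than control by 5.11 ± 0.34 at 1 h, 5.37 ± 0.34 at 2 h and 4.96 ± 0.34 at 4 h (standard error, SE, from limma, n = 2 arrays a group). The values were 4.74, 4.96 and 4.53 between arrays numbered 1, and 5.49, 5.78 and 5.39 between arrays numbered 2. Klf4 was also lower on control array 2 than on control array 1. For L26292_g_at the mean changes were 5.53, 5.74 and 5.33. The control signal of this probe set was below the 40th percentile of its array on 1 of the 2 control arrays, so its change leans on a weak reading.

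**Figure D1:**
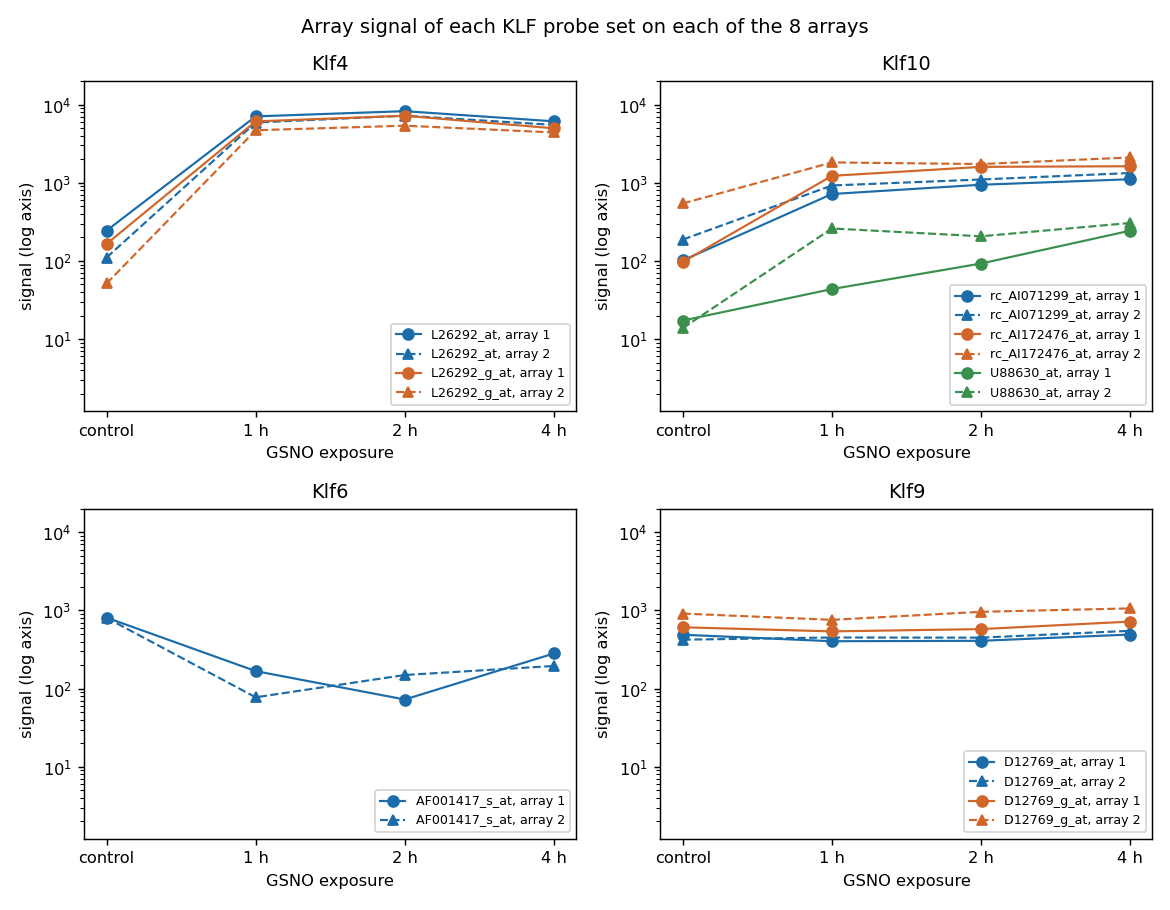
Signal of the 8 probe sets (log axis) in control and after 1, 2 and 4 h of GSNO, with a line for each array number (circles and full lines, arrays numbered 1; triangles and broken lines, arrays numbered 2). Klf4 and Klf10 lie above control at every exposure, Klf6 lies below, and Klf9 stays near its control level.

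Klf10, a TGF-beta-inducible early gene that encodes a transcriptional repressor, was also higher with GSNO, in all 3 probe sets and on every array. Probe set rc_AI071299_at read 102 and 188 in control, 718 and 923 at 1 h, 943 and 1100.3 at 2 h, and 1108 and 1331 at 4 h. Its change against control was 2.38 ± 0.31 at 1 h, 2.70 ± 0.31 at 2 h and 2.95 ± 0.31 at 4 h (SE, n = 2 arrays a group). It was similar in both array numbers, with 2.59 and 2.18 at 1 h for arrays numbered 1 and 2.

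The Klf10 probe set with the highest mean signal, rc_AI172476_at, read 97.2 and 543 in control, 1225 and 1819 at 1 h, 1597 and 1734 at 2 h, and 1627 and 2106 at 4 h. Its GSNO arrays all lay above both control arrays, while the GSNO groups overlapped each other. On the log2 scale its 2 control arrays differed more from each other than any of its GSNO pairs did. Its mean changes were 2.55, 2.71 and 2.86, each with an SE of 0.62. Between arrays numbered 1 these were 3.40, 3.77 and 3.80, and between arrays numbered 2 they were 1.71, 1.64 and 1.92. Without control array 1 the 1 h change was 1.43.

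The third Klf10 probe set, U88630_at, was weak: 17.3 and 13.8 in control, 43.6 and 260.1 at 1 h, 92.6 and 207 at 2 h, and 244 and 306 at 4 h. Both control readings were below the 40th percentile of their arrays, and the probe set passed the filter on weak signals only through the GSNO arrays. Its 1 h arrays disagreed, with changes of 0.75 and 3.01 on arrays numbered 1 and 2, and at 4 h they were close, at 2.79 and 3.23. The 1 h array numbered 1 is the only array of its chip lot, and the part of the lot in this gap was not tested. In all 6 Klf10 courses signal was lowest in control and highest at 4 h, and all 4 Klf4 courses were highest at 2 h. The courses of a gene are readings of the same arrays, 2 a group, and are not independent. Neither gene passed the test of 4 h against 2 h given below.

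Klf6, a growth-restraining factor known from injured vessels and liver, was lower with GSNO. Its single probe set, AF001417_s_at, read 809 and 803 in control, 168 and 77.5 at 1 h, 72.6 and 149 at 2 h, and 281 and 195 at 4 h. The control arrays were almost equal, and all 6 GSNO arrays lay below both. As a share of the control array of the same number, signal was 20.7% and 9.65% at 1 h, 8.97% and 18.6% at 2 h, and 34.8% and 24.3% at 4 h for arrays numbered 1 and 2.

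The Klf6 change against control was -2.60 ± 0.42 at 1 h, -2.71 ± 0.42 at 2 h and -1.69 ± 0.42 at 4 h (SE, n = 2 arrays a group). The low point differed between array numbers: 2 h on those numbered 1 (-3.15, against -2.14 at 1 h) and 1 h on those numbered 2 (-3.06, against -2.27 at 2 h). With 1 probe set there was no second reading of this gene, and the suffix of its name marks probes that the array maker held to match more than 1 transcript sequence. Of the 8 arrays, 6 had a Klf6 signal at or above their 40th percentile. Below it were 1 h array 2 (77.5 against 77.7) and 2 h array 1 (72.6 against 91.0). These are the low points of the 2 array numbers, so the low points lean on weak readings.

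Klf9, the basic transcription element binding factor, did not follow either direction. Probe set D12769_at read 489 and 423 in control, 404 and 451 at 1 h, 409 and 449 at 2 h, and 492 and 549 at 4 h. Probe set D12769_g_at, designed on the same record, read 609 and 912 in control, 539.7 and 759 at 1 h, 577 and 961 at 2 h, and 720.2 and 1062 at 4 h. The control range overlapped the 1 h and 2 h ranges in both probe sets, and at 4 h it overlapped in 1 of them.

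The Klf9 changes were small beside those of its relatives: -0.09, -0.08 and 0.18 for D12769_at (SE 0.24), and -0.21, -0.00058 and 0.23 for D12769_g_at (SE 0.36). Only at 4 h did both array numbers of both probe sets lie on the same side of control, at 0.01 and 0.36 for D12769_at, and 0.23 and 0.22 for D12769_g_at. All 4 Klf9 courses were highest at 4 h, by little, and 3 of 4 were lowest at 1 h. The description of the family as moving in opposite directions therefore rests on Klf4 and Klf10 on one side and Klf6 on the other.

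**Figure D2:**
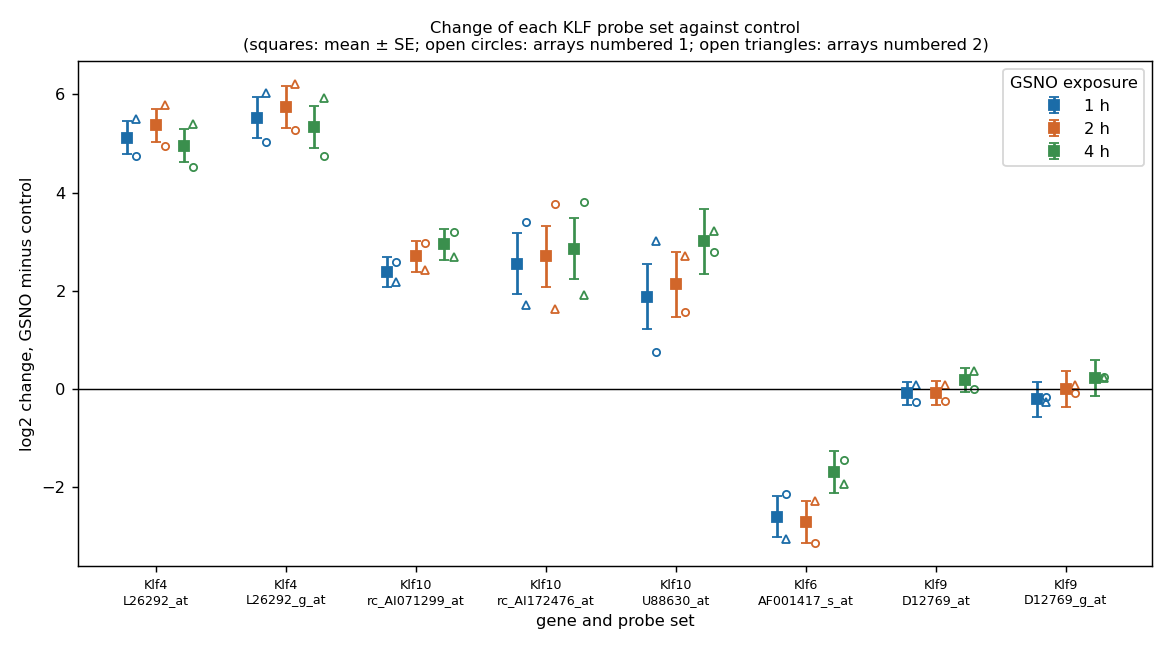
Log2 change against control of the 8 probe sets at 1, 2 and 4 h of GSNO, on the log2(signal + offset) scale. Squares are means with SE bars, and open circles and triangles are the changes within arrays numbered 1 and 2; Klf4 lies near 5, the Klf10 probe sets between 1.88 and 3.01, Klf6 between -2.71 and -1.69, and Klf9 around 0.

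The choice of genes did not use differences between exposure times, so these were tested with limma across all 5877 probe sets that passed the filter. None of the 8 probe sets passed in any of the 3 comparisons (4 h against 1 h, 2 h against 1 h, 4 h against 2 h), where 0.476%, 0% and 0% of all probe sets were called. Nor did any pass in a fit with a replicate block, which takes out the difference between arrays numbered 1 and 2 and called 5.1%, 0.034% and 0.544% of all probe sets. Unadjusted p was under 0.05 for 0 of 8 probe sets in 4 h against 1 h, 0 in 2 h against 1 h and 1 in 4 h against 2 h, and with the replicate block for 4, 0 and 1. Over all probe sets the shares at that threshold were 9.04%, 2.79% and 5.62%, and 18%, 7.33% and 12.8% with the block. The 4 were Klf6, the Klf9 probe set D12769_g_at, and the Klf10 probe sets rc_AI071299_at and U88630_at.

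The 1 probe set in 4 h against 2 h was Klf6 in both fits, and its signal was nearer control at 4 h. It was higher at 4 h than at 2 h by 1.02 (95% confidence interval 0.05 to 1.99; limma adjusted p = 0.845, and 0.302 with the replicate block). The difference was 1.69 on arrays numbered 1 and 0.34 on arrays numbered 2. On arrays numbered 1 the 2 h reading was below the 40th percentile of its array. Against 1 h it was 0.91 (interval -0.06 to 1.88; limma adjusted p = 0.586, and 0.255 with the block), with 0.68 and 1.13 on the 2 array numbers. Readings at 4 h, 281 and 195, lay above both 2 h readings, 72.6 and 149, and above both 1 h readings, 168 and 77.5.

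Klf4 was 0.41 lower at 4 h than at 2 h in L26292_at (interval -1.18 to 0.36; limma adjusted p = 0.925), by 0.43 and 0.39 on arrays numbered 1 and 2. Its 4 h level differed from its 1 h level by -0.15 (interval -0.93 to 0.62). Klf10 was 0.57 higher at 4 h than at 1 h in rc_AI071299_at (interval -0.15 to 1.29; limma adjusted p = 0.67, and 0.19 with the block). The same difference was 0.31 in rc_AI172476_at and 1.12 in U88630_at, with wider intervals. For Klf9 it was 0.27 (-0.28 to 0.82) and 0.44 (-0.39 to 1.26). The intervals, wide with 2 arrays a group, give the range of differences between times that is compatible with these data. They do not give the smallest change that could be detected.

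**Figure D3:**
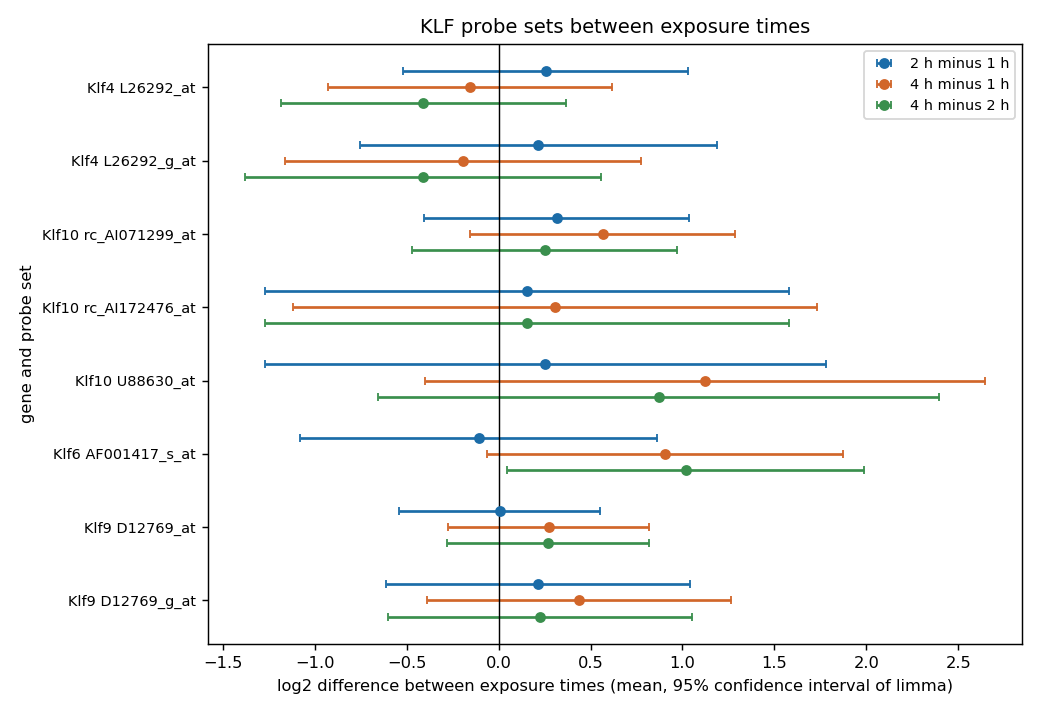
Log2 difference between exposure times for each probe set, with the 95% confidence interval of the limma fit. All intervals cross 0 except Klf6 at 4 h minus 2 h, and none of the differences passed after adjustment over all probe sets.

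Across the 8 arrays, after taking off the mean of each array number, Klf4 (L26292_at) correlated with Klf10 at 0.97 for rc_AI071299_at, 0.90 for rc_AI172476_at and 0.86 for U88630_at. Its correlation with Klf6 was -0.91. With Klf9 it was 0.02 and -0.01. These values share arrays and the same low or high control groups, and are a description of 8 points. The genes were also chosen on their directions against control, so the signs with Klf10 and Klf6 are no independent support.

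By the same measure over 4839 other probe sets, the 3 genes most like Klf4 were RT1-DMa, a class II antigen-processing gene (r = 0.98), Cebpb, a basic leucine zipper factor (0.98), and Ier3, an early response gene that affects cell survival (0.98). Their changes at 1 h were 0.36, 2.97 and 2.28 beside 5.11 for Klf4, so likeness of shape did not mean likeness of size. Nearest to Klf10 (rc_AI172476_at) were the cell surface proteoglycan gene Sdc4 (0.98), the Max-binding repressor Mxi1 (0.97) and the interferon regulatory factor Irf1 (0.96), with 4 h changes of 1.89, 1.17 and 1.00. Nearest to Klf6 were Kxd1 (0.97), the CBP/p300-binding regulator Cited2 (0.96) and Snd1 (0.95). Cited2 was lower by 2.10, 1.90 and 1.02 at 1, 2 and 4 h, and the other 2 moved by less than 0.5. Nearest to Klf9 were the haem synthesis gene Ppox, the phosphatase gene Ptpn23 and the receptor gene Neo1 (0.97 each), with changes under 0.5 in size. Each gene was picked for a top value over all these probe sets, on 8 arrays. Without taking off the array-number means, r was 0.76 for RT1-DMa, 0.72 for Sdc4 and 0.73 for Cited2. For the other genes named here it was 0.83 to 0.98.

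Of 22 other genes of the KLF and SP family that were looked for, 3 had a probe set and only Sp1, a widely expressed activator at GC boxes, passed the filter. Sp1 read 71.5 and 125 in control, 99.6 and 119 at 1 h, 74.0 and 166 at 2 h, and 196 and 153 at 4 h. Its changes of 0.16, 0.20 and 0.74 did not pass (limma adjusted p = 1.00, 1.00 and 0.593). Klf13 read 17.98 to 74.1 and Sp4 21.4 to 66.9 over the 8 arrays, and they reached the 40th percentile on 1 and 0 arrays.

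The gene lists below were drawn up with earlier results of these arrays known, and 1 probe set a gene is used. Across all probe sets limma called 0.527% at 1 h, 0.97% at 2 h and 1.53% at 4 h against control, and the median change of all was -0.05, -0.06 and -0.16. The calls were higher signal for 0.493%, 0.783% and 0.953% of probe sets and lower signal for 0.034%, 0.187% and 0.579%. The 4 h split of 56 higher and 34 lower was 83 and 21 when arrays were scaled to a common median, which moved the median change of all probe sets to 0.04. With the replicate block, 1.34%, 3.16% and 7.93% were called. An unadjusted p under 0.05 was reached by 3.01%, 6.13% and 11.1% of all probe sets without the block. The list of immediate early factors holds rapid response genes, a class to which Klf4 and Klf10 are often added. Of 14 genes, 6 rose at 1 h, 5 rose at 2 h, and 3 rose with 1 that fell at 4 h. With the replicate block the counts were 6 that rose at 1 h, 6 that rose with 1 that fell at 2 h, and 5 that rose with 1 that fell at 4 h. The list's median change was 1.17, 1.00 and 0.84. Ier3, named above beside Klf4, was among the genes that rose at each time, by 2.28, 2.72 and 2.48 (limma adjusted p = 0.03, 0.0087 and 0.0098). Its other kept probe set gave 1.51, 1.86 and 1.58 and was called at 2 and 4 h but not at 1 h. The Ier3 calls were not followed with arrays left out.

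In this list the orphan nuclear receptor gene Nr4a3 rose by 5.28, 5.40 and 3.70 at 1, 2 and 4 h (limma adjusted p = 0.00399, 0.00192 and 0.00829), while its other probe set gave 1.59, 0.99 and -0.94 and was not called. Crem, a modulator of cyclic AMP-driven transcription, rose by 3.21, 4.13 and 4.30 in S66024_g_at. Its other probe sets were called at each time too, with 4.54, 5.93 and 6.06 in S66024_at, and 2.87, 3.91 and 3.40 in U04835_at, where the highest mean was at 2 h. Nr4a1 rose by 4.63 and 3.68 at 1 and 2 h and stood at 2.30 at 4 h (limma adjusted p = 0.0739, and 0.00968 with the replicate block). Nr4a2 rose by 4.24 and 3.32 and stood at 1.22 at 4 h (limma adjusted p = 0.348). The gene that fell at 4 h was Egr1, an early growth response factor, by 1.94 (limma adjusted p = 0.0308), named after its value was seen. At 2 h Egr1 stood at -1.65 (limma adjusted p = 0.0774, and 0.0063 with the block). Its other kept probe sets gave -2.24 to -0.43 at 2 h, where 1 was called without the block. At 4 h they gave -2.68 to -1.27, and 2 were called. Junb, a subunit of the AP-1 factor, rose by 2.42 at 1 h and stood at 1.24 at 2 h and 0.98 at 4 h (limma adjusted p = 0.26 and 0.278, and 0.0299 and 0.0471 with the block). With 1 of the 8 arrays left out in turn, the 1 h call was lost in 1 case for Crem, 2 for Nr4a1, 3 for Nr4a2 and 6 for Junb, the 2 h call in 3 cases for Nr4a1 and 2 for Nr4a2, and the 4 h call in 1 case for Nr4a3 and 6 for Egr1.

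Cell cycle and growth arrest genes, among which are known targets of Klf4, Klf6 and Klf10, had 1 call among 18 genes. Btg1, an antiproliferative gene, read 3334 and 3246 at 4 h and 9335 and 8474 in control. It fell by 1.46 at 2 h and 1.43 at 4 h on the log2 scale (limma adjusted p = 0.0453 and 0.0398), and stood at -0.49 at 1 h. The Btg1 call at 2 h was lost whichever of the 8 arrays was left out, and at 4 h with 6 of the 8, while the 4 h change stayed between -1.50 and -1.36. The list's median was 0.05, 0.14 and -0.05. With the replicate block Myc at 1 h and Cdkn1a at 2 and 4 h passed too (adjusted p = 0.0079, 0.0109 and 0.0048).

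Of 17 TGF-beta pathway and matrix genes, to which Klf6 and Klf10 are tied, limma called 0 at each time, where 0, 1 and 4 had an unadjusted p under 0.05 at 1, 2 and 4 h. The largest changes of the list were in Tgfb3, a TGF-beta ligand gene, and in Smad7, which encodes an inhibitor of the pathway. Tgfb3 read 1112 and 1052 at 4 h and 6770 and 3037 in control, a change of -2.05 (limma adjusted p = 0.0742, and 4.97e-04 with the replicate block). The other kept probe set of Tgfb3, not read for the list, gave -1.89 at 4 h and was called by limma without the block. Smad7 read 289.8 and 697 at 1 h and 50.3 and 285 in control, a change of 1.68 (limma adjusted p = 1.00, and 0.0317 with the block). With the block 1 gene was called at 1 h, 0 at 2 h and 4 at 4 h, the last being Tgfb1, Tgfb2, Tgfb3 and the receptor gene Acvrl1, whose change was -1.17 (limma adjusted p = 0.164, and 0.0366 with the block).

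Of 7 hormone receptor and response genes, tied to Klf9, limma called 0 at each time, with 1 at an unadjusted p under 0.05 at each. Dusp1, a MAP kinase phosphatase gene, had 1.13 at 1 h (limma adjusted p = 0.31, and 0.014 with the replicate block), and the thyroid hormone receptor gene Thrb had -1.94 at 4 h (0.154, and 0.00473 with the block). The list's medians were -0.04, 0.03 and 0.17, close to those of all probe sets at 1 and 2 h.

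Smooth muscle contractile genes, which Klf4 is known to repress, showed no call by limma among 11 genes at 1, 2 or 4 h, and 0 had an unadjusted p under 0.05. Their medians of 0.04, -0.06 and -0.26 lay within about 0.1 of those of all probe sets. The smooth muscle myosin gene Myh11 read 2310 and 3014 at 4 h and 3199 and 5037 in control, a change of -0.60 (limma adjusted p = 0.612, and 0.0434 with the replicate block), while its other probe sets gave -0.30 and -0.05. By the 1 probe set read for each gene, Actg2, a smooth muscle actin gene, had the largest change at -0.96 at 1 h, with an SE of 2.09, and read 747 and 15.8 at 1 h and 1098 and 74.4 in control. Other probe sets moved further: of the 5 kept for the tropomyosin gene Tpm1, rc_AI144767_s_at gave -1.03, -1.18 and -1.96 at 1, 2 and 4 h (4 h limma adjusted p = 0.172, and 0.0207 with the block), and AB010963_s_at, 1 of 2 for the potassium channel subunit gene Kcnmb1, gave -1.51 at 4 h (limma adjusted p = 0.637, and 0.0792 with the block). The probe sets read for these genes gave -0.28 and 0.04 at 4 h.

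**Figure D4:**
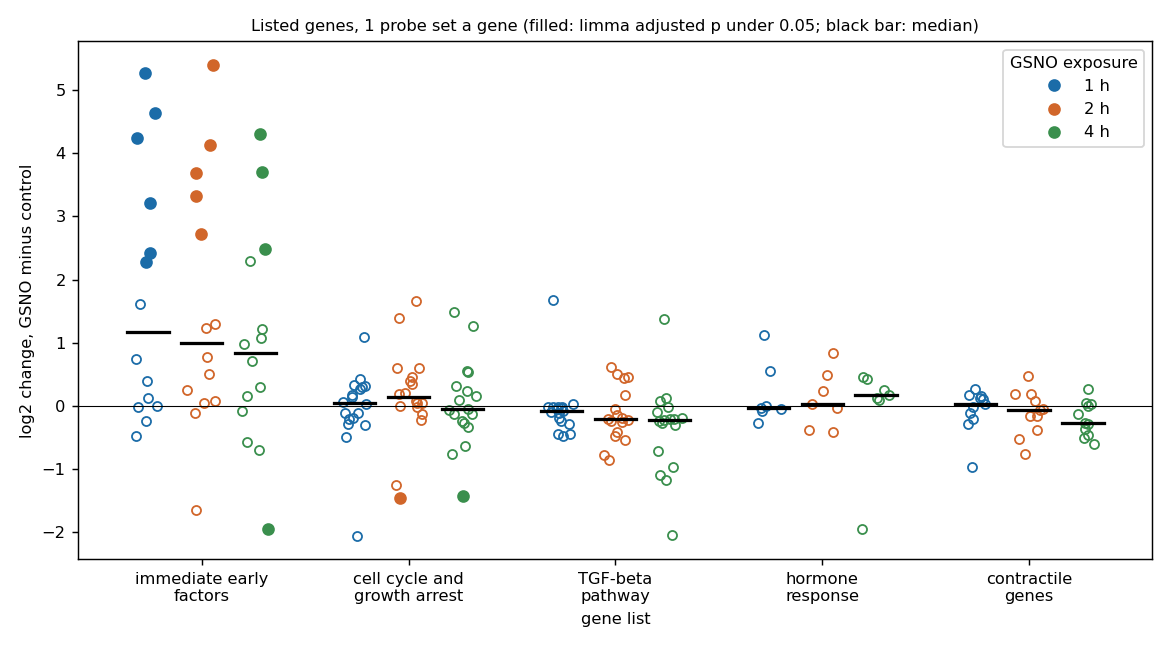
Log2 change against control of the genes of 5 lists at 1, 2 and 4 h of GSNO, 1 probe set a gene. Filled points passed limma at an adjusted p under 0.05 and black bars are medians: immediate early factors hold 6, 5 and 4 filled points, cell cycle and growth arrest genes 0, 1 and 1, and the other lists 0.

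Defining markers of the labelled cell type were present. Of 12 contractile genes with a probe set, 10 were at or above the 40th percentile on every array, and Tagln read at least 9539 on all 8 arrays, while Des stayed below it throughout. Summed signal of 7 endothelial markers ran from 1245 to 1389 at 1 h, 1618 to 2068 at 2 h and 1359 to 2510 at 4 h, against 1072 to 1162 in control. Most of it was Thbd, with 888 to 2124 on the GSNO arrays and 635 to 712 in control. Kdr and Sele were below the 40th percentile on every array, and Vwf reached it with 1 of its 2 probe sets on 1 array. Pecam1 reached it on 5 arrays. For Nos3, U02534_at reached it on 8 arrays, AF110508_at and AJ011115_g_at on 6 each, and the other probe sets on 0. Of these markers limma called 0 at each time, with 0, 1 and 1 at an unadjusted p under 0.05. With the replicate block Thbd was called at 4 h, at 1.18 (limma adjusted p = 0.196, and 0.0211 with the block), and its other probe set gave 2.59. Ace gave -0.09, 0.84 and -0.76. Fibroblast markers summed to 8266 to 9942 with GSNO and 8571 to 9734 in control, most of it S100a4, which read 6136 to 8829 with GSNO and 7408 and 7638 in control. Dcn stood at -2.30 at 1 h (limma adjusted p = 0.13, and 0.0172 with the block) and 0.37 at 2 h, and fell by 2.42 at 4 h (limma adjusted p = 0.0453). It read 16.1 and 25.9 at 1 h, 158 and 372 at 2 h and 16.0 and 18.5 at 4 h, against 170.4 and 199.9 in control, while its other kept probe set gave -0.35 at 4 h and the 4 h call was lost with 6 of the 8 arrays left out in turn. Leukocyte markers summed to 367 to 641 with GSNO and 518 to 643 in control, with no change of Ptprc or Cd14 past the threshold. The part of other cells in the KLF values was not tested.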

How the data were processed

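The authors measured RNA on Affymetrix arrays and, per the series design, used Affymetrix GeneChip 5.0 software on the scans. The deposited values are intensity values, 1 linear signal per probe set, with no detection calls. The mean signal per array without the outer 2% at each end was 499.98 to 499.99, so each array had been scaled and was used as deposited. No genome build is given in the sources used here.

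Of 8799 probe sets, 59 array controls were left out. An offset of 21.1 (median over arrays of the 20th percentile) was added before log2. Weak probe sets, those that reached the 40th percentile of signal on fewer than 2 of the 8 arrays, were dropped, which left 5877, with all 8 members among them. Symbols come from GEO's platform annotation, and the gene IDs of the 4 members were found in RefSeq under the same symbols. A gene with several probe sets is read from the kept one with the highest mean log2 signal.

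limma 3.58.1 in R 4.3.3 fitted all 4 groups together (4 residual degrees of freedom, variance trend), with two-sided p-values adjusted by Benjamini-Hochberg over 5877 probe sets and a threshold of 0.05. The number of arrays limits the precision. Deviations from group means correlated between arrays of the same number, at 0.387 to 0.569 for the 6 group pairs, over the minimum of 0.1. The array number was therefore taken to pair the arrays, but this enters the tests only in the fits with the replicate block. The main fit has no block. Arrays numbered 1 and 2 were scanned on 2 different days and came from 3 chip lots, so array number and scan day cannot be told apart. On arrays numbered 1, control and 2 h shared a recorded experiment, and 1 h and 4 h shared another. Changes at 1 h and 4 h on these arrays therefore cross records. All arrays numbered 2 shared a further record. The fit was tested on simulated data. P-values measure only the spread between arrays where both came from 1 preparation.

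The members and lists were chosen with earlier results of these data known. The named genes are every member probe set, every measured relative, up to 4 called genes with the largest change in each list (2 where none was called), and the 3 genes most correlated with each member. Genes whose call changed with the replicate block, and Egr1 and single probe sets of Crem, Tpm1 and Kcnmb1, were named after their values were seen. Alternatives covered the offset, filter, scaling, spread, blocks, probe set and each array left out.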

Additional observations from a re-analysis of the deposited data

Results flagged for a closer look

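The response of Nr4a2, an orphan nuclear receptor gene listed with the immediate early factors, differed between exposure times by a test of the difference. Nr4a2 was named for the size of its change against control, which was largest at 1 h. The choice was therefore not independent of this test. It read 279 and 378 at 4 h, against 2802 and 2768 at 1 h, a difference of -3.02 ± 0.46 (SE; limma adjusted p = 0.0402, and 0.00176 with the replicate block). Both 4 h arrays lay below both 1 h arrays. The call was lost under 3 of the 10 other settings: scaling to a common median (-2.83, adjusted p = 0.0612 by limma), only the 2 compared groups (0.0514) and no variance trend (0.0764). It was also lost with 6 of the 8 arrays left out in turn, kept without either 2 h array, and limma's adjusted p ran from 0.00176 to 0.237 over all settings, with differences of -3.22 to -2.76. No Kruppel-like factor probe set met this test.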

How the results depend on the processing

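Klf4, Klf6 and Klf10 kept their direction against control at all 3 times under the 10 other settings and with each of the 8 arrays left out. Klf9 changed sign under some. The genes were chosen on this direction, and the GSNO arrays of Klf4, Klf6 and Klf10 did not overlap control. Their kept direction is therefore a description and no support. An offset of 100 gave 4.61, 4.86 and 4.45 for Klf4 at 1, 2 and 4 h, and -2.06 and -2.13 for Klf6 at 1 and 2 h. The recorded experiment as a block gave -3.17 and -2.26 for Klf6 at 1 and 4 h, and probe set L26292_g_at gave 5.53 for Klf4 at 1 h. With 1 array left out, the ranges at 1, 2 and 4 h were 4.61 to 5.62, 4.86 to 5.88 and 4.45 to 5.47 for Klf4, -3.07 to -2.13, -3.14 to -2.28 and -1.94 to -1.45 for Klf6, -0.50 to 0.07, -0.36 to 0.36 and -0.06 to 0.51 for Klf9, and 1.43 to 3.68, 1.58 to 3.83 and 1.73 to 3.98 for Klf10. The lowest Klf10 values came without control array 1. No setting called a Kruppel-like factor probe set between exposure times.

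The counts of all called probe sets moved with the model: with a replicate block by array number, 31, 57 and 90 at 1, 2 and 4 h became 79, 186 and 466, and the counts of 0, 28 and 0 for 2 h against 1 h, 4 h against 1 h and 4 h against 2 h became 2, 300 and 32. With the recorded experiment as a block they were 152 and 165 at 2 and 4 h, 201 for 4 h against 1 h and 1 for 4 h against 2 h. Fitting only the 2 compared groups gave 37 at 2 h and 0 for 4 h against 1 h, leaving out the variance trend gave 4 for 4 h against 1 h, and quantile normalization gave 1 for 2 h against 1 h. With 1 array left out the ranges were 5 to 27, 19 to 52 and 32 to 87 against control (lowest without 1 h array 1, 2 h array 1 and control array 1), and 0 to 23 for 4 h against 1 h and 0 to 1 for 4 h against 2 h. Scaling to a common median moved the median change at 4 h to 0.04 and the split of 56 higher and 34 lower to 83 and 21.

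Over all lists, the 6 genes called at each time became 10, 10 and 16 with the replicate block, 10 at 4 h with the recorded experiment and 3 at 4 h with only the compared groups, and ran from 1 to 6, 3 to 5 and 1 to 6 with 1 array left out. The lowest counts came without 1 h array 1, 2 h array 1 and 4 h array 2. Among single genes, the 2 h call of Btg1 was lost with every one of the 8 arrays left out in turn, a setting that also leaves fewer arrays. The replicate block changed no call of a Kruppel-like factor between times. The cause of the other shifts was not tested.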

Other observations

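Several genes of the lists moved in ways that the choice of named genes left out, and they are given here after their values were seen. Cdkn1a, the p21 cell cycle inhibitor and a known Klf4 target, read 1183 and 1202 at 4 h and 568 and 299 in control, a change of 1.48 (limma adjusted p = 0.0838), and its other kept probe set gave 1.83 and was called. Myc read 85.9 and 207 at 1 h and 662 and 592 in control, and its change was -2.05 at 1 h, -1.25 at 2 h and -0.64 at 4 h (limma adjusted p = 0.283, 0.705 and 0.693). As with Klf6, the mean change of Myc was smallest in size at 4 h. The Klf6 differences between times did not pass after adjustment, and those of Myc are not given here.

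The mean changes of the TGF-beta ligand genes had different signs at 4 h. Tgfb1 read 1631 and 1323 at 4 h and 683 and 451 in control (1.37, limma adjusted p = 0.0566). Tgfb2 read 320 and 187 at 4 h and 599 and 416 in control (-0.97, limma adjusted p = 0.305). With the replicate block both passed (adjusted p = 0.00434 and 0.0328), as did the fall of Tgfb3.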
